A study of Danio rerio with 12 samples.

Results

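Semaphorins are guidance ligands and plexins are their receptors. They were taken as a module by gene symbol: every row of the gene table whose symbol starts with sema and a digit, or with plxn and 1 of the letters a, b, c or d. The rule found 41 of 22158 genes, 29 semaphorins in 5 classes and 12 plexins in 4 classes. All 41 had at least 10 reads in 2 or more libraries, and all 41 passed the filter on low counts. The least abundant, sema4gb and sema3h, reached 10 reads in only 2 libraries, both of 1 group (WT SV for sema4gb, WT atrium for sema3h), so they passed through the group in which they were highest. sema4ga and sema5ba likewise passed the filter on low counts only through the WT SV, where they were highest. Bulk RNA-seq had been done on 12 libraries from adult zebrafish, 2 for each of 6 groups: the sinus venosus (SV) and the ventricle of nr2f1a aco mutants, and the SV, bulbus arteriosus (BA), atrium and ventricle of wild-type (WT) fish. Each library held tissue of 20 fish aged 6 months to 1.5 years on an AB/TU background. The aco allele deletes part of the 5′ untranslated region of nr2f1a and leaves a transcript, so nr2f1a reads do not check the genotype, and adult mutants effectively lack atria. The SV is the venous inflow vessel of the fish heart and the BA is its elastic arterial outflow vessel. The comparisons addressed how the vessels differ from the chambers, and how the enlarged mutant SV stood to the WT SV and the BA.

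Class 3 semaphorins are secreted and mostly signal through a neuropilin that holds the ligand and a plexin that carries the signal, whereas classes 4 to 6 span the membrane and class 7 is anchored to it by a lipid, and these mostly bind plexins directly. The plexin tail switches off small Rap and Ras GTPases and acts on the cytoskeleton, so that the receiving cell or growth cone usually turns away. In the mouse the system is known for outflow tract septation and for the routing of sympathetic axons and veins. In mouse and zebrafish vessels it is known for limiting endothelial sprouting.

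Each library held 28325098 to 60532949 reads assigned to genes, of which the 41 members took 0.0187% to 0.0363%. Levels were given as CPM, counts per 1000000 reads scaled by library composition, on which 3 reads were worth 0.0686 to 0.0881 CPM, the level below which a gene was treated as not measurable. Levels of different genes were compared only in the deposited counts per kilobase scaled by a DESeq2 size factor for each library (here called FPKM). Replicates of a group correlated at r = 0.937 to 0.974 over all genes tested and at 0.895 to 0.968 over the members, lowest in aco SV. With 2 pooled libraries per group, the tests measured the spread between replicate libraries left after 1 factor of unwanted variation was fitted. Libraries had been prepared in several batches, and which library was in which batch was not given in the sources used here. The factor was computed from differences between replicates, so a batch shared by a whole group would stay in that group's contrasts. Fold changes are adjusted for the factor, so they can differ from ratios of mean CPM. The 8 heart muscle markers summed to 31068 to 129772 CPM in the chambers, against 492 to 2950 CPM in SV and BA libraries. Transcripts typical of other organs were also found, with 6 enterocyte genes at 5.2 and 4.67 CPM in aco SV and 1406 and 1483 CPM in WT SV, and 6 hepatocyte genes at 4556 and 357 CPM in aco SV and 325 and 550.1 CPM in WT SV. In such bulk tissue, fewer cells of a type and less RNA per cell cannot be told apart.

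Among the 4 WT tissues, 25 of the 41 members differed (61.0%, against 41.4% of all 19145 genes tested). A member was called where the Benjamini-Hochberg adjusted p of edgeR's quasi-likelihood test over all genes tested was below 0.05, and adjusted p values are from this test unless another tool is named. Differences were found in 10 of 12 class 3 semaphorins, 5 of 9 of class 4, 1 of 3 of class 5, all 4 of class 6, 3 of 5 plexin A genes and 2 of 5 plexin B genes, but not in the single genes of class 7, plexin C and plexin D. These counts include sema3h and sema4gb, which passed the filter only through the group in which they were highest. The WT ventricle held the highest mean CPM for 14 members, 7 semaphorins and 7 of the 12 plexins. The BA was highest for 10 members, the atrium for 9 and the SV for 8. Of all genes tested, 26.0% were highest in the ventricle, 26.3% in the BA, 16.9% in the atrium and 30.8% in the SV.

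**Figure D1:**
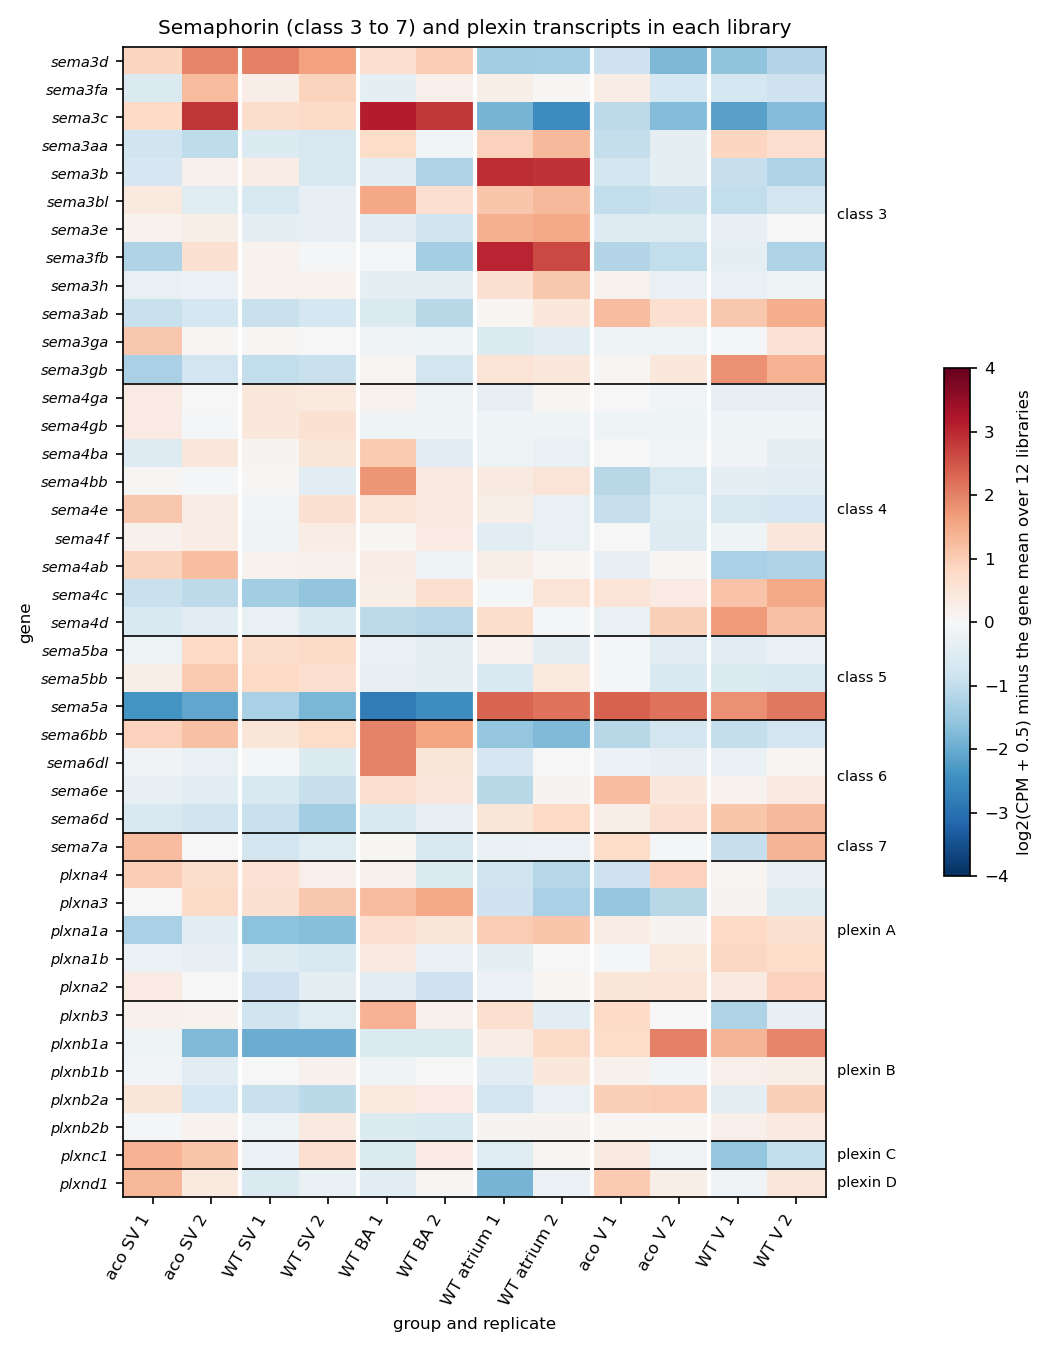
Level of the 41 members in each of the 12 libraries, as log2(CPM + 0.5) minus the gene's mean over all libraries; rows are genes grouped by class, columns are libraries in pairs by group, and red is above and blue below the mean. In the class 3 block sema3b and sema3fb were highest in the 2 WT atrium libraries and sema3c in the WT BA libraries and 1 aco SV library, while sema5a was low in all 6 SV and BA libraries.

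The WT SV and WT ventricle differed in 24 members, 11 higher and 13 lower in the SV, where 35.7% of all genes were called, 19.4% higher and 16.2% lower. The BA differed from the ventricle in 16 members, 8 in each direction (26.7% of all genes, 13.8% higher and 12.9% lower). The SV differed from the atrium in 15, 4 higher and 11 lower (20.6% of all genes, 9.61% higher and 10.9% lower). The BA differed from the atrium in 12, 5 higher and 7 lower (18.6% of all genes, 8.46% higher and 10.1% lower). The SV differed from the BA in 12, 3 higher and 9 lower (18.1% of all genes, 9.37% higher and 8.69% lower). The atrium and ventricle differed in 6, of which 5 were higher and 1 lower in the atrium (5.11% of all genes, 3.12% higher and 1.98% lower). Members' shares exceeded those of all genes in all 6 comparisons. These counts include calls on members that passed the filter only through their highest group. Such members were sema4ga and sema5ba between SV and ventricle, and sema3h between BA and atrium and between SV and BA. The members' median log2 fold change was -0.48 for SV over atrium and -0.21 for SV over ventricle, against 0.06 and 0.21 over all genes tested. Calls between the vessels were unstable: of the 12 members called between SV and BA, only plxna1a and sema4c were called in every fit with 1 library left out, and 4 members were called with the replicate number as a block.

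Class 3 ligands set the atrium apart. sema3b, a secreted ligand that binds neuropilins in mammals, had 9.73 and 18 CPM in aco SV, 19.4 and 9.87 in WT SV and 11.7 and 6.4 in WT BA. Chamber libraries held 127 and 119 CPM in WT atrium, 9.24 and 11.8 in aco ventricle and 8.08 and 6.37 in WT ventricle. Both atrium libraries lay far above the other 10, whose range was 6.37 to 19.4 CPM. It was the most abundant semaphorin of any group, at 13.7 and 12.1 FPKM in the 2 atrium libraries. The atrium exceeded the WT ventricle (log2 fold change 4.16, SE 0.41, adjusted p = 6.0e-04), and both vessels lay below the atrium (SV over atrium -2.96, adjusted p = 4.8e-04; BA over atrium -3.69, adjusted p = 1.5e-04). These calls held in every alternative and every fit with 1 library left out. sema3fb, 1 of 2 zebrafish copies of the neuropilin-2 ligand Sema3F, had the same shape: 3.34 and 13 CPM in aco SV, 9.17 and 8.15 in WT SV and 7.91 and 2.97 in WT BA. Chamber libraries held 73.2 and 54.1 CPM in WT atrium, 3.44 and 3.95 in aco ventricle and 6.44 and 3.23 in WT ventricle. No other library came near the 2 atrium values (atrium over ventricle log2 fold change 3.90, SE 0.46, adjusted p = 0.00173). In the RefSeq annotation of GRCz12tu, a different build from that of the files, sema3fb overlaps the coding genes zgc:112970 and zgc:174680, so its reads may be shared with them.

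sema3e, whose mouse protein binds plexin D1 without a neuropilin, was the third ligand of this kind, at a mean of 1.0 FPKM in the atrium. It had 3.21 and 3.51 CPM in aco SV, 2.06 and 2.19 in WT SV and 1.96 and 1.46 in WT BA. Chamber libraries held 8.59 and 9.16 CPM in WT atrium, 1.85 and 1.86 in aco ventricle and 2.21 and 2.88 in WT ventricle. The atrium again lay above every other library (BA over atrium log2 fold change -2.39, SE 0.39, adjusted p = 0.00156; SV over atrium -2.08, adjusted p = 0.00338), while its call against the ventricle (log2 fold change 1.80, adjusted p = 0.025) was lost in each fit with 1 library left out. sema3bl, a sema3b-like gene that lies next to sema3b in GRCz12tu, followed another pattern: 0.847 and 0.241 CPM in aco SV, 0.16 and 0.326 in WT SV and 2.53 and 1.12 in WT BA. Chamber libraries held 1.7 and 2.01 CPM in WT atrium, 0.0241 and 0.0548 in aco ventricle and 0.0246 and 0.117 in WT ventricle. It was measurable in the atrium, the BA and, at lower levels, the SV of both genotypes, and near 0 in ventricles of both genotypes. The atrium exceeded the ventricle (log2 fold change 4.76, SE 0.91, adjusted p = 0.0154) and the SV lay below the BA (-3.02, adjusted p = 0.0223). The atrium call was lost without WT ventricle replicate 1 or WT atrium replicate 1, and the call between SV and BA was lost in 3 of 4 such fits, with adjusted p up to 0.158. sema3h, a fish class 3 gene, had 0.0229 and 0.0481 CPM in aco SV, 0.206 and 0.21 in WT SV and 0 and 0 in WT BA. Chamber libraries held 0.476 and 0.857 CPM in WT atrium, 0.217 and 0.0274 in aco ventricle and 0.0246 and 0.0587 in WT ventricle. It had no read in either BA library, so the BA was at least 8.35-fold lower than the atrium and at least 2.6-fold lower than the SV, taking 3 reads per library as the floor. These are descriptions with no test, since sema3h passed the filter through the atrium alone.

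sema3c marked the BA. Sema3C is the class 3 ligand that mouse embryos need for dividing the outflow tract. It had 5.59 and 24.8 CPM in aco SV, 5.21 and 5.5 in WT SV and 30.6 and 24.4 in WT BA. Chamber libraries held 0.476 and 0.107 CPM in WT atrium, 1.18 and 0.548 in aco ventricle and 0.27 and 0.558 in WT ventricle. The BA libraries were high, the chambers of both genotypes were low at 0.107 to 1.18 CPM, below every SV and BA library, and aco SV replicate 2 reached the BA range whereas aco SV replicate 1 lay beside the WT SV. The BA exceeded the atrium (log2 fold change 6.79, SE 0.82, adjusted p = 2.6e-04) and the ventricle (log2 fold change 6.19, SE 0.79, adjusted p = 2.2e-04), and the SV also exceeded both chambers (over atrium 4.49, adjusted p = 0.00207; over ventricle 3.89, adjusted p = 0.00203). The SV was lower than the BA (log2 fold change -2.30, adjusted p = 0.0282), a call kept in 1 of 4 fits with a library left out and lost with the replicate number as a block (adjusted p = 0.0838). Summed CPM of 8 smooth muscle genes moved the same way, at 1215 and 5651 in aco SV, 3350.4 and 2605 in WT SV and 9986 and 12567 in WT BA, with at most 558 CPM in any chamber library; their part in the sema3c difference was not tested. In GRCz12tu sema3c overlaps kdm7aa, which did not share its pattern: kdm7aa had 8.24 and 9.86 CPM in WT BA, 10.4 and 12.3 in WT atrium and 14.1 and 32.7 in WT ventricle.

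sema3d was the most abundant semaphorin of the SV, at a mean of 5.26 FPKM in aco SV and 6.8 FPKM in WT SV. Its mouse protein steers the endothelium of the pulmonary veins. It had 9.09 and 19.8 CPM in aco SV, 21.1 and 15.7 in WT SV and 8.02 and 10.3 in WT BA. Chamber libraries held 1.53 and 1.58 CPM in WT atrium, 2.48 and 1.01 in aco ventricle and 1.23 and 1.85 in WT ventricle. WT SV was highest on average and overlapped aco SV, the BA lay between, and the 6 chamber libraries stayed at 1.01 to 2.48 CPM. The SV exceeded the ventricle (log2 fold change 3.59, SE 0.54, adjusted p = 5.2e-04) and the atrium (log2 fold change 3.57, SE 0.54, adjusted p = 1.0e-03), calls that held in every alternative and with any library left out, and the BA exceeded the ventricle as well (log2 fold change 2.58, SE 0.52, adjusted p = 0.00361). Between SV and BA sema3d differed by 1.01 on the log2 scale (95% interval -0.04 to 2.06, adjusted p = 0.17), which was not called. sema3fa, the other Sema3F copy, was sparse at 0.0881 to 2.0 CPM and was higher in SV than in ventricle (log2 fold change 3.54, adjusted p = 0.0404), a call lost whenever 1 library was left out.

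Other class 3 ligands were higher in the ventricle than in the vessels. sema3gb, a copy of the neuropilin-2 ligand Sema3G that mouse arterial endothelium makes, had 0.641 and 1.16 CPM in aco SV, 0.915 and 1.0 in WT SV and 2.47 and 1.2 in WT BA. Chamber libraries held 3.61 and 3.27 CPM in WT atrium, 2.38 and 3.23 in aco ventricle and 9.38 and 6.87 in WT ventricle. WT ventricles were highest without overlap, and SV and BA lay below them (SV over ventricle log2 fold change -2.88, SE 0.46, adjusted p = 7.8e-04; BA over ventricle -2.00, adjusted p = 0.00625). sema3ab, a copy of Sema3A, which patterns sympathetic nerves in the mouse heart, had 0.321 and 0.433 CPM in aco SV, 0.32 and 0.443 in WT SV and 0.517 and 0.208 in WT BA. Chamber libraries held 1.1 and 1.55 CPM in WT atrium, 3.13 and 1.86 in aco ventricle and 2.73 and 3.7 in WT ventricle. Ventricles of both genotypes exceeded all SV and BA libraries (SV over ventricle log2 fold change -3.13, SE 0.63, adjusted p = 0.00309; BA over ventricle -3.18, adjusted p = 0.00333). Neither was called between atrium and ventricle (sema3gb -1.17, adjusted p = 0.141; sema3ab -1.29, adjusted p = 0.22). The other copy, sema3aa, was highest in the atrium at 2.15 and 2.92 CPM and had 0.457 and 0.396 CPM in the SV (SV over atrium log2 fold change -2.55, SE 0.67, adjusted p = 0.0204), a call lost with any 1 library left out. sema3ga stayed at 0.0250 to 1.12 CPM and was called nowhere. Endothelial markers were highest in WT ventricle and BA, with 8 genes summing to 353 and 271 CPM in WT SV, 1081 and 690.1 in WT BA, 469.7 and 412 in WT atrium and 838 and 714 in WT ventricle. sema3gb and sema3ab shared the high ventricle but not the high BA. The part of these markers in the differences was not tested.

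The mix of class 3 transcripts therefore changed from tissue to tissue. As a share of summed class 3 FPKM, sema3d made up 47.6% and 44.2% in the 2 aco SV libraries and 60.8% and 58.4% in WT SV. sema3c made up 14.3% and 26.9% in aco SV, 7.31% and 9.92% in WT SV and 44% and 42.4% in WT BA. sema3b made up 57.5% and 59.5% in the atrium. sema3gb made up 17.1% and 25.9% in aco ventricles and 47.9% and 38.8% in WT ventricles, the leading member in both WT ventricle libraries. Summed FPKM of all 29 semaphorins was 20.6 and 27.8 in aco SV, 22.8 and 18.3 in WT SV, 33 and 25 in WT BA, 41.2 and 39.8 in WT atrium, 25.1 and 22 in aco ventricle and 31.8 and 33.8 in WT ventricle, so the atrium carried the most and the WT SV the least in WT fish.

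**Figure D2:**
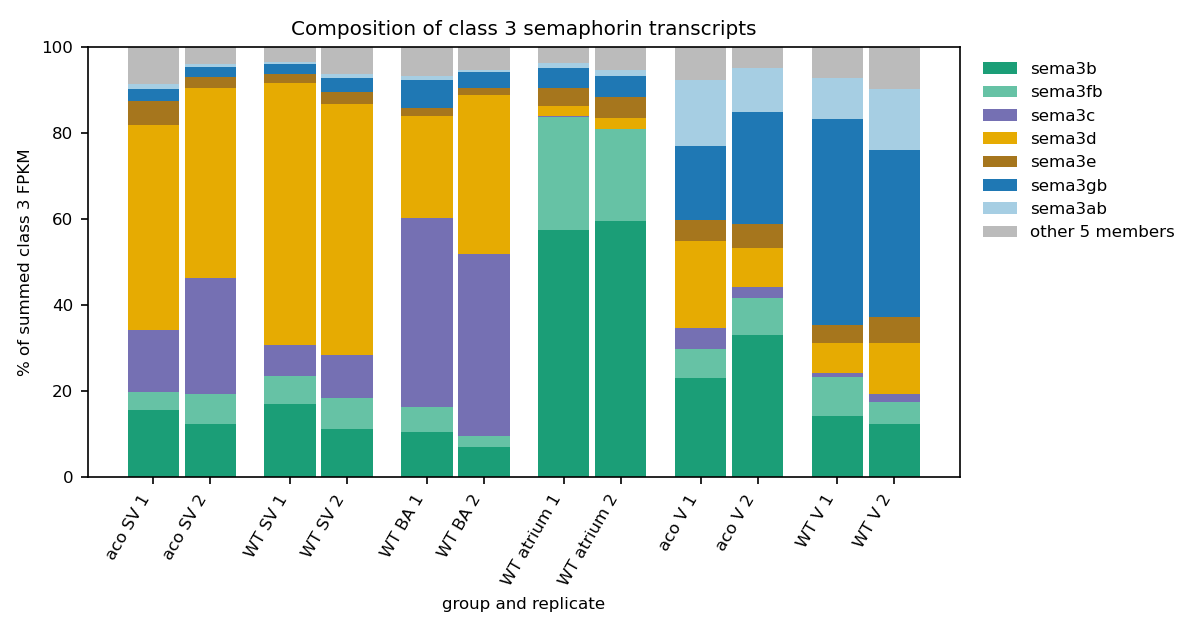
Share of each class 3 semaphorin in the summed class 3 FPKM of every library (stacked bars to 100%, 2 bars per group; grey sums the 5 members not named). sema3d was the largest share in all 4 SV libraries, sema3c in both WT BA libraries, sema3b in both WT atrium libraries and sema3gb in both WT ventricle libraries.

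Class 4 was led by sema4c, a membrane ligand of plexin B2 in mammals and the second most abundant member over the 12 libraries. It had 11.7 and 10.5 CPM in aco SV, 8.21 and 7.08 in WT SV and 26.6 and 34.9 in WT BA. Chamber libraries held 21 and 32.4 CPM in WT atrium, 32.2 and 27.8 in aco ventricle and 49.6 and 63.7 in WT ventricle. WT ventricles were highest and WT SV lowest, with no overlap between any SV library and the rest. The SV was lower than the ventricle (log2 fold change -2.99, SE 0.31, adjusted p = 7.4e-05), the atrium (-1.86, adjusted p = 0.00134) and the BA (-2.02, adjusted p = 0.00113), and these 3 calls held in every alternative and with any library left out. The atrium was lower than the ventricle (log2 fold change -1.13, adjusted p = 0.0478), a call lost in every such fit. In GRCz12tu sema4c overlaps srrm4, which had 0.0233 to 0.969 CPM in the 12 libraries.

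sema4d, the plexin B1 ligand, had 0.252 and 0.361 CPM in aco SV, 0.434 and 0.256 in WT SV and 0.0544 and 0.026 in WT BA. Chamber libraries held 1.38 and 0.616 CPM in WT atrium, 0.433 and 1.75 in aco ventricle and 3.27 and 2.11 in WT ventricle. BA libraries had only 2 and 1 reads, at or under the floor, and WT ventricles were highest. On the CPM scale the WT BA was lower than the WT ventricle by a ratio of 68.8 (95% Clopper-Pearson interval 23.2 to 336, which covers counting error only) and lower than the WT atrium by a ratio of 25.3 (8.35 to 125). Both differences were called (adjusted p = 6.4e-04 and 0.00512) and held with any library left out. sema4ab, a copy of Sema4A, which acts on immune cells in mice, had 10.8 and 13.6 CPM in aco SV, 6.17 and 6.36 in WT SV and 6.99 and 4.79 in WT BA. Chamber libraries held 6.78 and 6.0 CPM in WT atrium, 4.36 and 5.84 in aco ventricle and 1.97 and 2.08 in WT ventricle. The WT ventricle was low beside all other groups (SV over ventricle log2 fold change 1.70, SE 0.35, adjusted p = 0.00345; BA over ventricle 1.59, adjusted p = 0.00559; atrium over ventricle 1.67, adjusted p = 0.022); of these, the SV call alone held with any library left out. Sums of 6 leukocyte genes were also lowest in the WT ventricle, at 410.3 and 493 CPM in WT SV, 402 and 376 in WT BA, 814 and 311 in WT atrium and 121 and 138 in WT ventricle; their part was not tested.

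The other class 4 genes were sparse or even. sema4bb differed among tissues (adjusted p = 0.0466) and was called between BA and ventricle (log2 fold change 2.08, SE 0.62, adjusted p = 0.0275), at 6.28 and 2.06 CPM in BA libraries and 1.03 and 0.998 CPM in WT ventricles, a call lost in 3 of 4 fits with a library left out. sema4gb had reads only in SV libraries, 0.206 and 0.0481 CPM in aco SV and 0.252 and 0.349 CPM in WT SV, and none in the 8 others, so WT SV was at least 3.76-fold higher than BA, at least 3.87-fold higher than atrium and at least 3.71-fold higher than ventricle. No test of sema4gb is given, since it passed the filter through the WT SV alone. sema4ga had 0.298 and 0.12 CPM in aco SV, 0.343 and 0.326 in WT SV and 0.19 and 0.052 in WT BA. Chamber libraries held 0 and 0.161 CPM in WT atrium, 0.144 and 0.0822 in aco ventricle and 0 and 0 in WT ventricle. With no read in WT ventricles, WT SV was at least 4.14-fold higher. No test of that difference is given, since sema4ga passed the filter only through the WT SV. sema4ba (1.42 to 5.17 CPM over the 12 libraries), sema4e (0 to 1.49 CPM) and sema4f (0.630 to 1.70 CPM) were not called between WT tissues. Several marker sums were also highest in WT SV. Those of 9 glia and neuron genes were 92.8 and 31.8 CPM in WT SV and at most 24.7 CPM in the other WT libraries. Enterocyte sums were 1406 and 1483 CPM in WT SV and at most 2.85 CPM in the other WT libraries. Sums of 4 erythrocyte genes were 44659 and 89183 CPM in WT SV and at most 27630 CPM in the others. The part of these markers in the SV reads of sema4ga and sema4gb was not tested.

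sema5a divided chambers from vessels with a wider gap between library ranges than any other member, although sema3c had fold changes of similar size. Class 5 ligands carry thrombospondin repeats, and Sema5A binds plexin B3 in mammals. It had 0.343 and 0.554 CPM in aco SV, 1.3 and 0.745 in WT SV and 0.136 and 0.286 in WT BA. Chamber libraries held 21.6 and 19.6 CPM in WT atrium, 22.2 and 19.4 in aco ventricle and 15.1 and 18.5 in WT ventricle. All 6 chamber libraries held 15.1 to 22.2 CPM and all 6 vessel libraries 0.136 to 1.30 CPM. In WT fish the BA was lower than the atrium (log2 fold change -6.56, SE 0.51, adjusted p = 2.6e-05) and the ventricle (log2 fold change -6.27, SE 0.50, adjusted p = 3.6e-05), and the SV was lower than the atrium (-4.30, adjusted p = 1.5e-04) and the ventricle (-4.01, adjusted p = 8.7e-05). All 4 calls held in every alternative and with any library left out. In GRCz12tu sema5a overlaps the coding gene LOC141380659, so its reads may be shared with it. Within the vessels the SV was higher than the BA (2.26, adjusted p = 0.00855), a call lost without WT BA replicate 1 or WT SV replicate 1. The heart muscle marker sums given above divided the same libraries, and their part was not tested. The 2 sema5b copies were highest in SV, at the edge of detection. sema5ba had 0.114 and 0.722 CPM in aco SV, 0.663 and 0.699 in WT SV and 0.0816 and 0.052 in WT BA. Chamber libraries held 0.275 and 0.0536 CPM in WT atrium, 0.168 and 0.0274 in aco ventricle and 0.0246 and 0.0881 in WT ventricle. WT SV and aco SV replicate 2 lay above all other libraries. Its partner sema5bb had 0.823 and 0.722 CPM in WT SV and 0 to 0.509 CPM in the other 6 WT libraries. No test of sema5ba is given, since it passed the filter only through the WT SV. Between SV and ventricle sema5bb was not called (adjusted p = 0.0618).

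All 4 class 6 genes differed among the WT tissues. sema6bb, a copy of the plexin A4 ligand Sema6B, had 19.4 and 23.1 CPM in aco SV, 14.2 and 16.9 in WT SV and 40.9 and 31 in WT BA. Chamber libraries held 3.1 and 2.62 CPM in WT atrium, 4.38 and 5.81 in aco ventricle and 4.99 and 5.7 in WT ventricle. The order BA, aco SV, WT SV, chambers held without overlap at each step. BA exceeded atrium (log2 fold change 3.68, SE 0.34, adjusted p = 6.1e-05) and ventricle (log2 fold change 2.79, SE 0.32, adjusted p = 1.4e-04), and SV exceeded atrium (2.49, adjusted p = 4.7e-04) and ventricle (1.59, adjusted p = 0.00269), calls that held throughout. The SV was lower than the BA (log2 fold change -1.20, adjusted p = 0.0195), which held in 1 of 4 fits with a library left out.

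sema6d, the plexin A1 ligand known from heart tube morphogenesis in the chick, had 7.56 and 6.72 CPM in aco SV, 6.2 and 4.22 in WT SV and 7.72 and 9.42 in WT BA. Chamber libraries held 17 and 21 CPM in WT atrium, 14.4 and 18.9 in aco ventricle and 26.5 and 29.8 in WT ventricle. WT ventricles led, then the atrium and aco ventricle, and the vessels were lowest (SV over ventricle log2 fold change -2.46, SE 0.34, adjusted p = 2.9e-04; BA over ventricle -1.74, adjusted p = 0.00241; SV over atrium -1.89, adjusted p = 0.00216). sema6dl, a second row of the table, had 4.63 and 4.19 CPM in aco SV, 4.96 and 3.45 in WT SV, 22.1 and 7.41 in WT BA, 3.08 and 5.22 in WT atrium, 4.36 and 4.0 in aco ventricle and 4.25 and 5.55 in WT ventricle. It was high in BA replicate 1 alone (BA over atrium log2 fold change 1.82, SE 0.50, adjusted p = 0.0258), and the call was lost in 3 of 4 fits with a library left out. In GRCz12tu the name sema6dl is a synonym of sema6d, so the 2 rows may be parts of 1 gene, and the split of reads between them is uncertain. sema6e, named sema6cb in GRCz12tu and at 1.80 to 11.1 CPM, was lower in SV than in BA (log2 fold change -1.53, adjusted p = 0.0343) and ventricle (-1.34, adjusted p = 0.0388), and neither call outlasted the removal of any library.

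sema7a, whose mammalian protein is held to the membrane by a lipid anchor and binds integrin beta 1 and plexin C1, had 4.35 and 1.56 CPM in aco SV, 0.755 and 0.978 in WT SV and 1.63 and 0.832 in WT BA. Chamber libraries held 1.23 and 1.26 CPM in WT atrium, 2.94 and 1.45 in aco ventricle and 0.59 and 4.81 in WT ventricle. Its replicates spread widely, above all the WT ventricle pair, and it was not called among the WT tissues (adjusted p = 0.204).

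Plexin A proteins are the signalling partners of neuropilins. plxna1a had 8.5 and 15.8 CPM in aco SV, 6.45 and 6.15 in WT SV and 34.3 and 29.9 in WT BA. Chamber libraries held 43.7 and 46.8 CPM in WT atrium, 26.1 and 22.9 in aco ventricle and 37.8 and 32.9 in WT ventricle. WT SV was the only low WT tissue, and no WT SV library came within the range of 29.9 to 46.8 CPM of the other WT libraries. The SV was lower than the atrium (log2 fold change -2.78, SE 0.32, adjusted p = 2.7e-04), the ventricle (log2 fold change -2.38, SE 0.32, adjusted p = 2.7e-04) and the BA (log2 fold change -2.33, SE 0.32, adjusted p = 7.5e-04), in every alternative and with any library left out. plxna3, which guides motor axons in zebrafish, had 1.28 and 2.58 CPM in aco SV, 2.26 and 3.28 in WT SV and 3.7 and 4.66 in WT BA. Chamber libraries held 0.526 and 0.241 CPM in WT atrium, 0.12 and 0.329 in aco ventricle and 1.42 and 0.763 in WT ventricle. The BA pair was highest, and BA and SV exceeded the atrium (BA over atrium log2 fold change 3.71, SE 0.57, adjusted p = 0.00101; SV over atrium 3.18, adjusted p = 0.00242). plxna2 had 10.6 and 14.6 CPM in WT SV, 13.8 and 10.5 in WT BA, 16 and 20 in WT atrium and 24.5 and 36.5 in WT ventricle, and was lower in the BA than in the ventricle (log2 fold change -1.40, adjusted p = 0.00578) and in the SV than in the ventricle (-1.37, adjusted p = 0.00563). Both calls were lost without WT ventricle replicate 2, and the SV call also without WT SV replicate 1. plxna1b, at 1.93 to 6.09 CPM, was called between SV and ventricle alone (-1.55, adjusted p = 0.0167, kept in 1 of 4 fits with a library left out), and plxna4, at 0.455 to 3.66 CPM, was not called.

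Plexin B genes bind class 4 ligands. plxnb1a, a copy of the Sema4D receptor, had 12 and 3.76 CPM in aco SV, 3.16 and 3.17 in WT SV and 9.19 and 9.1 in WT BA. Chamber libraries held 17.1 and 23.9 CPM in WT atrium, 23.6 and 58.2 in aco ventricle and 36.4 and 56 in WT ventricle. Ventricles and atrium lay above all vessel libraries, and WT SV replicates were nearly equal and lowest. The SV was lower than the ventricle (log2 fold change -4.04, SE 0.55, adjusted p = 2.7e-04) and the atrium (log2 fold change -2.83, SE 0.52, adjusted p = 0.00289), and the BA was lower than the ventricle (log2 fold change -2.47, SE 0.51, adjusted p = 0.00402), calls that held throughout. plxnb2a had 4.47 and 1.69 CPM in aco SV, 1.44 and 1.21 in WT SV and 4.19 and 3.98 in WT BA. Chamber libraries held 1.68 and 2.41 CPM in WT atrium, 6.45 and 6.63 in aco ventricle and 2.24 and 6.49 in WT ventricle. It differed among tissues (adjusted p = 0.0167) and was lower in SV than in ventricle (log2 fold change -1.86, adjusted p = 0.00714), which was lost without WT SV replicate 2 or WT ventricle replicate 2. GRCz12tu splits plxnb2a into neighbouring genes, plxnb2a.1 first and plxnb2a.2 next to it, so its reads may come from several copies. plxnb1b, plxnb2b and plxnb3 were at 0.0246 to 2.69 CPM and were called in no comparison.

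plxnc1, the receptor of Sema7A in mammals, had 35.5 and 29.1 CPM in aco SV, 11 and 21.4 in WT SV and 8.59 and 16.5 in WT BA. Chamber libraries held 9.24 and 14 CPM in WT atrium, 17 and 11.7 in aco ventricle and 4.15 and 6.31 in WT ventricle. WT ventricles were lowest without overlap, and the SV exceeded them (log2 fold change 1.45, SE 0.40, adjusted p = 0.0155), a call lost without WT ventricle replicate 1 or WT SV replicate 2. plxnd1, the endothelial receptor of Sema3E that restrains vessel sprouting in zebrafish, was the most abundant member, at a mean of 6.95 FPKM over the 12 libraries, and the most abundant plexin in every group except WT atrium, where plxna1a was. It had 37.9 and 19.6 CPM in aco SV, 9.79 and 12 in WT SV and 10.7 and 15.2 in WT BA. Chamber libraries held 3.73 and 12.5 CPM in WT atrium, 31.1 and 17.4 in aco ventricle and 13.2 and 20.4 in WT ventricle. The groups overlapped and it was not called among WT tissues (adjusted p = 0.051). Summed FPKM of the 12 plexins was 31.1 and 18.9 in aco SV, 10.1 and 13.1 in WT SV, 14.1 and 15.3 in WT BA, 11.6 and 16.6 in WT atrium, 25.8 and 21.8 in aco ventricle and 18.6 and 23.3 in WT ventricle, so WT SV and WT atrium overlapped at the low end.

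**Figure D3:**
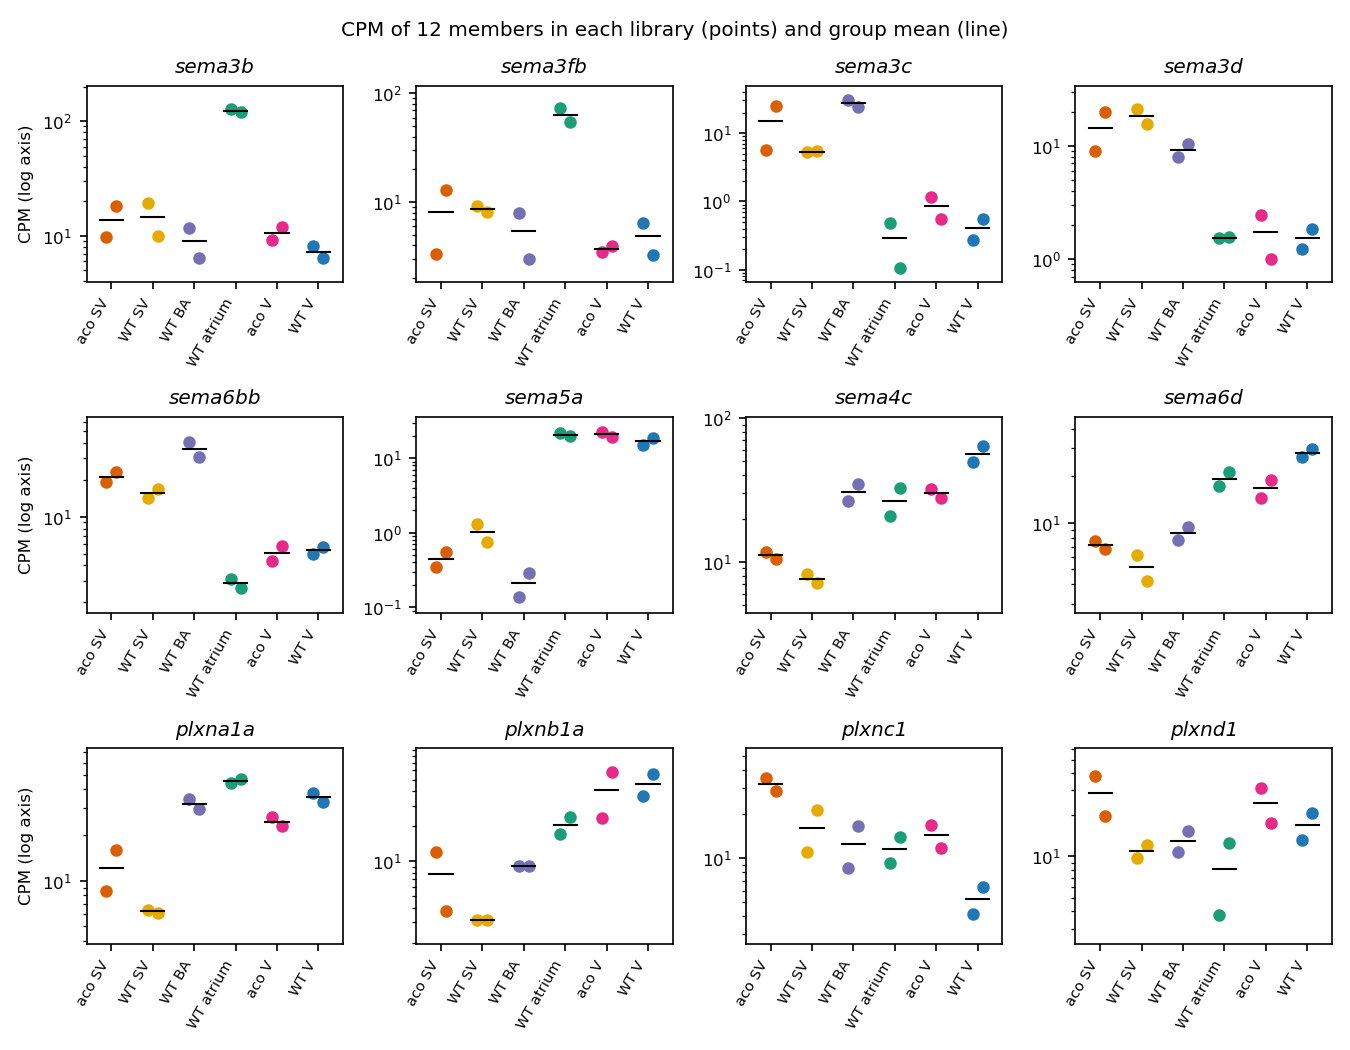
CPM of 12 members in each library (points, log axis) with the mean of the 2 libraries (line), for aco SV, WT SV, WT BA, WT atrium, aco ventricle (aco V) and WT ventricle (WT V); each panel has its own axis range. sema3b and sema3fb stand out in the atrium, sema3c and sema6bb in the BA, sema5a in the chambers, and plxna1a is low in the SV of both genotypes.

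Among the members were 9 pairs of copies whose symbols differ only in a last letter a or b, and in FPKM 1 copy often dominated. sema3fb exceeded sema3fa in both libraries of all 6 groups, most in the atrium (5.32 and 0.149 FPKM on average). plxnb1a exceeded plxnb1b in all 6 groups (5.39 and 0.102 FPKM in WT ventricle), as did plxna1a over plxna1b (3.6 and 0.533 FPKM in WT atrium) and sema4ba over sema4bb (0.889 and 0.583 FPKM in WT BA). sema3gb exceeded sema3ga in 5 of 6 groups and plxnb2a exceeded plxnb2b in 5 of 6. The Sema3A copies changed places: sema3aa was the higher in WT BA and WT atrium (0.387 and 0.272 FPKM in atrium), and sema3ab in ventricles of both genotypes (0.671 and 0.294 FPKM in WT ventricle). Copies of sema4g and sema5b were too sparse to rank outside the SV.

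Between aco SV and WT SV no member was called, where 1.54% of all genes were (0.293% higher and 1.25% lower). An unadjusted p below 0.05 was found for 5 of the 41 members and 2674 of the 19145 genes tested. The share was no larger among members than among all genes. plxna1a had 8.5 and 15.8 CPM in aco SV, against 6.45 and 6.15 CPM in WT SV (log2 fold change 1.02, 95% interval 0.34 to 1.70, adjusted p = 0.149). sema4ab had 10.8 and 13.6 CPM in aco SV, against 6.17 and 6.36 CPM in WT SV (1.04, interval 0.29 to 1.78, adjusted p = 0.178). plxnd1 had 37.9 and 19.6 CPM in aco SV, against 9.79 and 12 CPM in WT SV (0.95, interval 0.16 to 1.73, adjusted p = 0.247). In all 3 genes both aco libraries lay above both WT libraries. sema5a had 0.343 and 0.554 CPM in aco SV, against 1.3 and 0.745 CPM in WT SV (-1.16, adjusted p = 0.258), the other way without overlap. sema3c (1.55, adjusted p = 0.285) was high in aco SV replicate 2 alone. The libraries of the 2 genotypes did not overlap for 23 members, 17 higher and 6 lower in aco SV (47.6% of all genes tested did not overlap, 24.0% higher and 23.6% lower). The 95% intervals of 39 of the 41 members reached past a 2-fold change in at least 1 direction. Cell markers moved between the same libraries. The 8 endothelial genes summed to 452 and 577 CPM in aco SV and 353 and 271 CPM in WT SV, and the 6 leukocyte genes to 511 and 722 CPM in aco SV and 410.3 and 493 CPM in WT SV, both higher in aco SV without overlap, as plxnd1 and sema4ab were. Within aco SV, plxnd1 was higher in replicate 1, whereas sema4ab and both of these sums were higher in replicate 2. Heart muscle sums (1831 and 492 CPM in aco SV and 2950.3 and 1945 CPM in WT SV), those of 4 erythrocyte genes (16057 and 20364 CPM in aco SV and 44659 and 89183 CPM in WT SV) and the enterocyte sums given above were lower in aco SV without overlap, whereas hepatocyte sums overlapped. Their part in the members' differences was not tested.

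Between aco ventricle and WT ventricle no member was called either (0.272% of all genes, 0.167% higher and 0.104% lower). An unadjusted p below 0.05 was found for 7 of the 41 members and 2741 of the 19145 genes tested. sema4ab had 4.36 and 5.84 CPM in aco ventricles, against 1.97 and 2.08 CPM in WT ventricles (log2 fold change 1.44, 95% interval 0.65 to 2.23, adjusted p = 0.127). sema4c had 32.2 and 27.8 CPM in aco ventricles, against 49.6 and 63.7 CPM in WT ventricles (-1.09, interval -1.76 to -0.42, adjusted p = 0.159). Neither pair of groups overlapped. The other 5 were sema3aa (-2.21), plxna3 (-1.79), sema3gb (-1.24), sema6d (-0.80) and plxnc1 (1.15), with adjusted p from 0.199 to 0.315. Leukocyte sums were higher in the mutants without overlap, at 172 and 330.0 CPM in aco ventricles and 121 and 138 CPM in WT ventricles, in the direction of sema4ab. Endothelial sums (350.2 and 458 CPM in aco ventricles and 838 and 714 CPM in WT ventricles) and smooth muscle sums (108 and 165 CPM in aco ventricles and 239.6 and 189.9 CPM in WT ventricles) were lower without overlap, in the direction of sema3gb and sema4c. plxnd1 did not follow the endothelial sums here, at 31.1 and 17.4 CPM in aco ventricles and 13.2 and 20.4 CPM in WT ventricles, which overlapped. The part of these markers was not tested. The libraries of the 2 genotypes did not overlap for 21 members, 8 higher and 13 lower in aco ventricles (47.2% of all genes tested, 23.7% higher and 23.5% lower). The intervals of 38 of the 41 members reached past a 2-fold change. DESeq2 on the same model called plxna1a and sema4ab in the SV (adjusted p = 0.0414 and 0.0463) and sema4ab and sema4c in the ventricle (adjusted p = 0.00795 and 0.0107). No member was called for a genotype effect that differed between SV and ventricle (0 members, 0.198% of all genes, 0.0209% higher and 0.178% lower), where DESeq2 called sema4c (adjusted p = 0.00985). In edgeR's test of that difference 6 of the 41 members and 2336 of the 19145 genes tested had an unadjusted p below 0.05. The shares of all genes that DESeq2 called are not given here, so its calls do not show a genotype effect particular to the members.

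**Figure D4:**
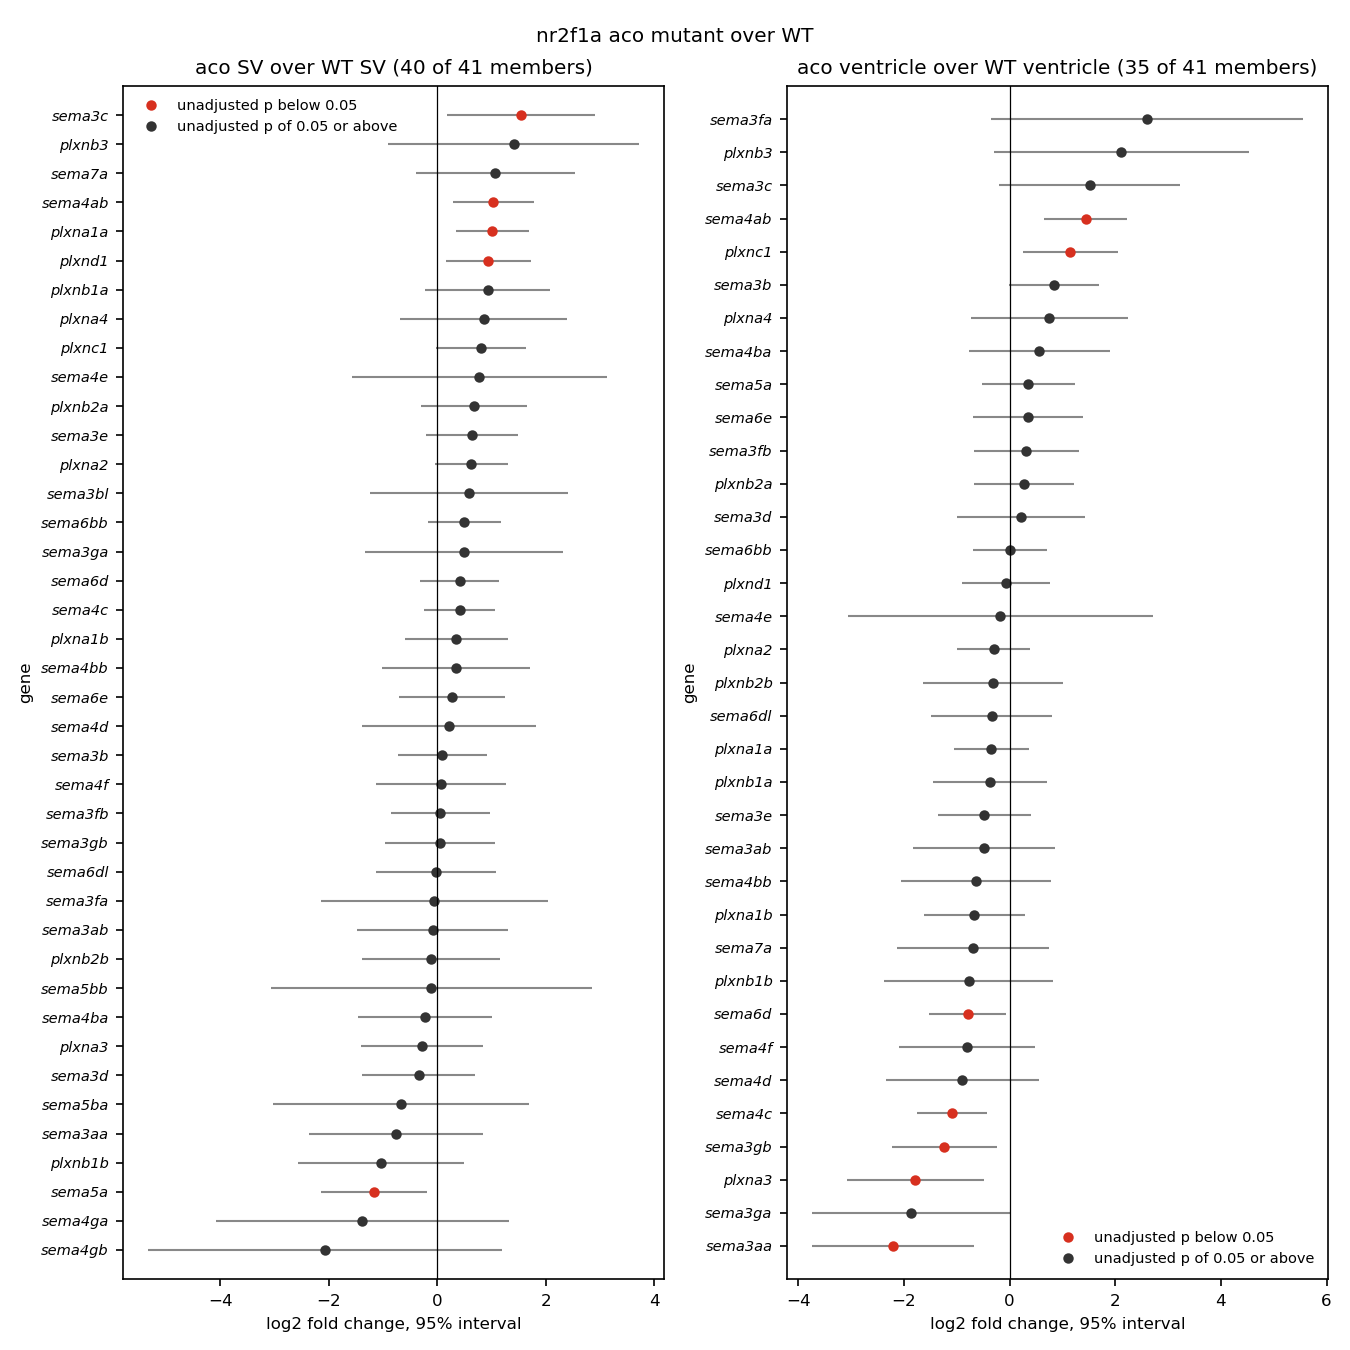
Log2 fold change of nr2f1a aco over WT with its 95% interval, in SV (left) and ventricle (right), in order of the estimate; members with a group at or under 3 reads in both libraries are left out of that panel (sema3h left; sema3h, sema3bl, sema4ga, sema4gb, sema5ba and sema5bb right). Red points have an unadjusted p below 0.05, and none of the 41 members passed the adjusted threshold in either comparison.

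Against the WT BA, aco SV had 2 members called, both lower (7.32% of all genes were called, 3.49% higher and 3.82% lower). sema4c, at 11.7 and 10.5 CPM in aco SV and 26.6 and 34.9 CPM in WT BA, was lower in aco SV (log2 fold change -1.61, SE 0.30, adjusted p = 0.0108), and so was plxna1a, at 8.5 and 15.8 CPM in aco SV and 34.3 and 29.9 CPM in WT BA (log2 fold change -1.31, SE 0.31, adjusted p = 0.0307). Each call held in 2 of 4 fits with a library left out. For all 12 members called between WT SV and WT BA, the aco SV mean CPM lay between the 2 WT means. The same held for 80.5% of the 3457 genes called there. All these genes were picked because WT SV and WT BA lay far apart in the same libraries. That choice alone makes a value between them likely, so neither share shows an intermediate mutant SV. The 12 include sema3h, which passed the filter through the atrium alone. In aco SV and WT BA, sema3h was at or under 3 reads per library. These positions are a description, since the aco SV was not tested against both at once. The aco SV replicates often sat at opposite ends, as for sema3c (5.59 and 24.8 CPM) and plxnb1a (12 and 3.76 CPM).

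The contrast of SV and ventricle had the same sign in both genotypes for 33 of the 41 members and 14786 of the 19145 genes tested. In aco fish 15 members differed between SV and ventricle, 6 higher and 9 lower in SV (21.0% of all genes, 9.86% higher and 11.1% lower). Of these, 14 were also called in WT fish with the same sign, 93.3% of the aco calls and 58.3% of the WT calls, against 82.1% and 48.3% over all genes tested. The 2 comparisons share no library, and their log2 fold changes correlated at r = 0.793 across the 41 members and 0.727 across all genes tested, with genes not being independent points. sema5a (log2 fold change -5.52 in aco and -4.01 in WT fish), sema4c (-1.49 and -2.99), sema3c (3.93 and 3.89), sema3d (3.04 and 3.59) and sema6bb (2.09 and 1.59) were called in both genotypes in every alternative and with any library left out. plxna3 was higher in SV in both (3.26 and 1.75), but its WT call was kept in only 1 of 4 fits with a library left out (lost without either WT ventricle library or WT SV replicate 2, adjusted p up to 0.23) and in 4 of 7 alternatives. plxnb1a was lower in both (-2.73 and -4.04), the aco call being lost without aco SV replicate 2. sema3bl alone was called in aco fish and not in WT fish (adjusted p = 0.0342 and 0.217), at 37 and 10 reads in aco SV and 1 and 2 in aco ventricle, a ratio of summed reads in CPM of 14.4 (95% Clopper-Pearson interval 4.62 to 72.1). That call was lost without either aco ventricle library or aco SV replicate 1 (log2 fold change 2.55 to 4.27 over the 4 such fits, adjusted p up to 0.22) and in 2 of 6 alternatives, and the difference between the genotypes was not called (adjusted p = 0.648).

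**Figure D5:**
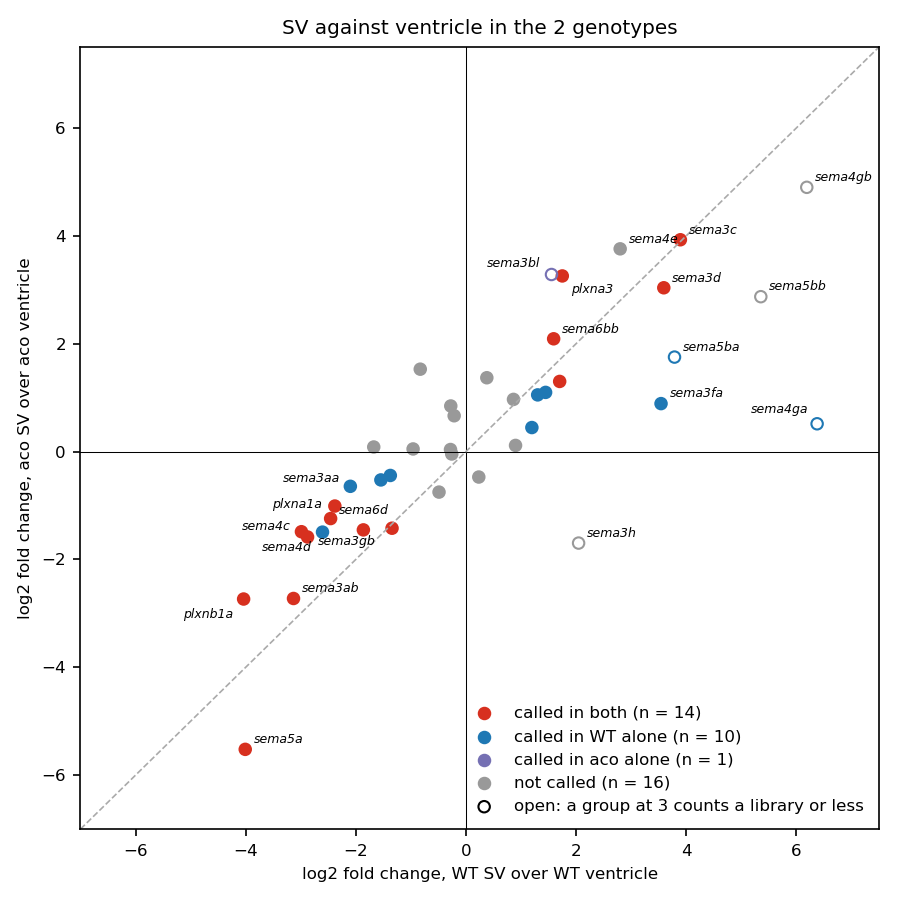
Log2 fold change of SV over ventricle in WT fish (horizontal axis) and in nr2f1a aco fish (vertical axis) for the 41 members, coloured by where they were called; open symbols have a group at or under 3 reads per library in either comparison, and the dashed line marks equal change. The 14 members called in both genotypes lie in the lower left and upper right quadrants.

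Of 16 co-receptors and alternative receptors listed, 13 were in the table and tested, and none was called between genotypes. Neuropilins hold class 3 ligands. nrp1a was highest in the BA, at 60.5 and 81.9 CPM in aco SV, 39.1 and 35.2 in WT SV, 132 and 163 in WT BA, 41.3 and 54.4 in WT atrium and 29 and 41.4 in WT ventricle (SV over BA log2 fold change -2.00, SE 0.35, adjusted p = 0.00328; BA over ventricle 2.02, adjusted p = 0.0017). nrp2a was a vessel gene, at 7.17 and 16 CPM in aco SV, 8.99 and 9.74 in WT SV, 15.3 and 17 in WT BA, 2.9 and 2.22 in WT atrium, 0.698 and 0.987 in aco ventricle and 1.47 and 0.881 in WT ventricle. It exceeded both chambers in SV and BA (SV over ventricle log2 fold change 3.29, SE 0.36, adjusted p = 8.9e-05; BA over ventricle 4.03, adjusted p = 5.0e-05) and ran with sema3c and sema3d over the 12 libraries (r = 0.906 and 0.875 of log2 levels, a description over libraries that share tissues). The other copy, nrp2b, did not share this pattern, at 24.2 and 25.3 CPM in WT SV, 10.2 and 18.8 in WT BA, 5.91 and 9.29 in WT atrium and 26.8 and 23.3 in WT ventricle. In WT ventricle nrp2b had 2.82 and 2.22 FPKM, and nrp2a had 0.24 and 0.13 FPKM. met, the hepatocyte growth factor receptor that plexin B1 can bind in human cells, was higher in SV than in ventricle (4.08, adjusted p = 4.4e-04), and kdrl, an endothelial receptor that is also 1 of the endothelial markers, was lower in SV (-1.65, adjusted p = 0.00308) and BA (-1.10, adjusted p = 0.0279) than in ventricle. Between SV and BA 3 of the 13 were lower and none higher (18.1% of all genes were called, 9.37% higher and 8.69% lower). Between SV and ventricle 3 were higher and 3 lower (35.7% of all genes, 19.4% higher and 16.2% lower). Counts among 13 genes are small, and they were not tested against these shares.

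Of 32 intracellular effectors listed, 31 were in the table and 29 tested, and none was called between genotypes or between atrium and ventricle. Between SV and ventricle 4 of the 29 were higher and 7 lower, in total about the background share (35.7% of all genes were called, 19.4% higher and 16.2% lower). Between BA and ventricle 8 were higher and 4 lower (26.7% of all genes, 13.8% higher and 12.9% lower), above the background share, which was not tested. MICAL enzymes oxidise actin downstream of plexins, and 3 of the 5 were lower in both vessels than in the ventricle. mical3a had 39.7 and 47.3 CPM in WT SV, 31.6 and 24.6 in WT BA, 429.8 and 552 in WT atrium and 434 and 525 in WT ventricle (SV over ventricle log2 fold change -3.52, SE 0.32, adjusted p = 4.8e-05; BA over ventricle -4.13, adjusted p = 3.6e-05), and mical2a and mical2b were lower in SV (-4.21 and -2.29, adjusted p = 4.9e-05 and 1.6e-04) and in BA (-2.20 and -1.83, adjusted p = 9.5e-04 and 6.1e-04). farp2, an exchange factor that binds plexin A1 in mice, was lower in SV too (-2.08, adjusted p = 8.3e-04). mical3b was higher in SV (1.66, adjusted p = 0.0259) and BA (1.69, adjusted p = 0.0292) than in ventricle. mical1, at 0.64 and 0.745 CPM in WT SV, 0.87 and 0.442 in WT BA and 0 and 0.264 in WT ventricle, was called in neither comparison (2.35 and 2.37, adjusted p = 0.0925 and 0.112). Heart muscle markers also divided vessels from chambers, and their part was not tested. dpysl2b, a CRMP protein that carries Sema3A signals to microtubules in neurons, was highest in the BA at 28.5 and 25.3 CPM in WT SV, 145 and 106 in WT BA, 12.1 and 15.9 in WT atrium and 21 and 26.4 in WT ventricle (SV over BA log2 fold change -2.23, SE 0.31, adjusted p = 8.4e-04; BA over atrium 3.15, adjusted p = 9.9e-05).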

How the data were processed

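Tissue was pooled from 20 fish per library, with 2 libraries for each of 6 groups. Reads had been trimmed (cutadapt), mapped to danRer11 (STAR) and, where unique, assigned to genes by strand (featureCounts), and the authors deposited these raw counts. Libraries came from several preparation batches of mixed strand and read type and were treated as single-end. Which library had which batch or type was not given in the sources used here, and a read could count for several overlapping genes. The authors also deposited FPKM per library, which equal the counts divided by gene length and a DESeq2 size factor. Columns of the authors' comparisons, fold changes and p values, were not used. Source and tissue labels of the aco libraries name wild type, whereas title and genotype name aco, and the second were followed.

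Counts were tested with edgeR 4.0.16 (R 4.3.3): filterByExpr, TMM scaling, and a quasi-likelihood fit with a term for each of the 6 groups and 1 unwanted-variation factor computed as in RUVs, which left 5 residual degrees of freedom. Each of 10 pairwise comparisons, a test among the 4 WT tissues and the difference of the genotype effects had its p values adjusted across the 19145 genes tested (Benjamini-Hochberg). The script was tested on simulated data. CPM are counts scaled by the TMM-adjusted library total. Depth limits precision for sparse members, and a group at 3 reads per library or fewer has no reliable fold. Alternatives were DESeq2 1.42.0, no factor, a replicate block, 2 other filters, DESeq2 size factors, a fit of the groups compared alone, and each library left out.

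Every library's CPM were given for members called in a genotype or interaction test, the called member with the largest change in each direction among those without overlap in each other pairwise comparison, up to 2 members per class with the smallest p among WT tissues, and the 3 members with the highest mean FPKM. Members and lists were chosen with earlier results of these data known, and sema3d, sema3e, sema3ab, sema3gb, sema4ab, sema6dl and the co-receptors and effectors with values were picked after their values were seen. RefSeq names of GRCz12tu were found for all 41 members, 38 by symbol and 3 by synonym, and no coordinates were taken from that build. In it 9 members overlap a coding gene and may share reads with it: sema3c, sema3fb, sema3ga, sema4ab, sema4c, sema4e, sema5a, plxna1b and plxna2.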

Additional observations from a re-analysis of the deposited data

Results flagged for a closer look

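In 7 members both aco libraries lay on one side of both WT libraries in the SV and on the other side in the ventricle. How many of all genes had this pattern was not counted. The genotypes did not overlap for 47.6% of all genes tested in the SV and 47.2% in the ventricle. The count of 7 is therefore not shown to be more than that of other genes. None of these differences passed edgeR's quasi-likelihood test after adjustment, so a difference between the tissues is not shown. The genotype effect in SV minus that in ventricle, on the log2 scale, was 1.501 for sema4c (adjusted p = 0.172), 1.37 for plxna1a (adjusted p = 0.240), 1.22 for sema6d (adjusted p = 0.309), 1.12 for sema3e (adjusted p = 0.435), 1.02 for plxna1b (adjusted p = 0.510) and -1.51 for sema5a (adjusted p = 0.324). For sema4ga the value was -5.86 (adjusted p = 0.371), and both WT ventricle libraries were at 0, so its fitted size depends on the prior count. It also passed the filter on low counts only through the WT SV.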

How the results depend on the processing

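Of the 102 pairs of a member and a comparison in which edgeR called it, 58 were called in every alternative that could be fitted, 51 with any library left out and 50 in both, and none changed direction. These pairs include sema3h, sema4ga and sema5ba, which passed the filter only through their highest group. With DESeq2 the numbers of members called were 2 between aco SV and WT SV, 2 between aco and WT ventricle, 7 between aco SV and WT BA (2 with edgeR), 10 between atrium and ventricle (6 with edgeR) and 1 for the difference of the genotype effects. DESeq2 size factors gave 4 for aco SV against BA, 2 in each direction. Without the factor of unwanted variation, 6 members were called between SV and BA (12 with it). Fits of the compared groups alone gave 0 for aco SV against BA, 6 for aco SV against aco ventricle (15 in the full fit) and 7 for SV against BA. With 1 library left out the counts were 0 to 5 for aco SV against BA (0 without aco SV replicate 1, 1 without aco SV replicate 2 or WT BA replicate 1, 5 without WT BA replicate 2), 7 to 10 for aco SV against aco ventricle (7 without aco SV replicate 1 and 8 without aco ventricle replicate 1), 2 to 9 for SV against BA (2 without WT SV replicate 1 or WT BA replicate 1, 3 without WT SV replicate 2), 13 to 15 for SV against ventricle (24 in the full fit; 13 without WT SV replicate 2, 14 without WT SV replicate 1 or WT ventricle replicate 2, 15 without WT ventricle replicate 1), 2 to 4 for atrium against ventricle (2 without WT atrium replicate 1 or WT ventricle replicate 1, 3 without WT ventricle replicate 2), and 0 for both genotype comparisons and their difference. These fits hold fewer libraries, and the causes of the other shifts were not tested. The share of all genes called in each alternative fit is not given here. The counts therefore do not show whether members shifted more than other genes.

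Whether equal replicate numbers mark tissue of the same pool of hearts was not given in the sources used here. Deviations of same-numbered libraries correlated at 0.111 to 0.240 in 4 of the 6 comparisons of WT tissues, at -0.0742 and -0.0192 in the other two, and at -0.440 to 0.00175 in the 4 comparisons with aco libraries, so a pairing was not established, and among WT tissues it was not settled. A replicate block in place of the factor gave 0 members for aco SV against BA, 4 for SV against BA, 15 for SV against ventricle and 2 for atrium against ventricle. The share of all genes called with the block is not given here either. With the aco numbers crossed, chosen after seeing the data, the block called 0 members between the SV genotypes and 1 between the ventricle genotypes. DESeq2 size factors moved the median log2 fold change of all genes to 0.17 for SV over atrium (0.06 with TMM), so small changes against the SV depend on the scaling.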
